A study of Mus musculus with 20 samples.

Results

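Homozygous *Inv1* and homozygous *Inv2* limb buds were compared with each other by capture Hi-C at the *Lbx1*/*Fgf8* locus, without the wild-type as a denominator. The comparison uses 8 of the 20 samples of the series, 4 of *Inv1* and 4 of *Inv2*, chosen by the genotype in their labels. Each genotype had 3 biological replicates and 1 technical replicate. The deposited files hold 1 merged map per genotype, so every value below is a pair of numbers and no spread between embryos, p-value or replicate test could be computed.

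In capture Hi-C, chromatin is fixed and cut, ends that lie near each other in the nucleus are ligated, and the ligation products of 1 region are pulled out with probes and sequenced as read pairs. The material was whole forelimb and hindlimb buds of mouse embryos at E11.5, for both genotypes on a background derived from the G4 embryonic stem cell line, a hybrid of 129 and C57BL/6 mice. Both alleles were made by cutting the DNA at a pair of sites with CRISPR/Cas9 and recovering the intervening stretch in reverse orientation. The apical ectodermal ridge (AER), in which the enhancers studied here act, is a thin strip of cells at the rim of the bud. A whole-bud map is an average over all its cells and does not show the AER apart.

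A topologically associating domain (TAD) is a stretch of chromosome whose parts meet each other more often than they meet the DNA beyond its boundaries, and enhancers mostly reach promoters of their own domain. At this locus *Lbx1*, which encodes a homeodomain factor of migrating limb muscle precursors, and *Btrc*, which encodes the F-box subunit of a ubiquitin ligase, share the centromeric domain. *Fgf8*, the fibroblast growth factor made by the AER, lies at the far end of the telomeric domain. Most of its known AER enhancers lie in introns of *Fbxw4*, another F-box gene, between *Fgf8* and the boundary that separates the domains. The paper places another AER enhancer close to *Fgf8* itself, and that one is not among the enhancers measured here. *Poll*, a DNA polymerase gene, and *Dpcd*, a gene linked to cilia, share a divergent promoter at that middle boundary.

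The captured interval runs from 44440001 to 46400000 on chromosome 19 (mm9) in bins of 5 kb. *Inv1* turns round the 123.05 kb from 45611050 to 45734101. *Inv2* turns round the 460.44 kb from 45332288 to 45792725, and so contains the *Inv1* interval. The reference sequence at the 4 breakpoints is given because it fixes which stretch each allele turned and on which side of each cut every gene lies. Each line has 15 bases on either side of the cut on the plus strand of mm9, and capitals mark the NGG motif (or, for a guide on the minus strand, its complement CCN) that Cas9 needs beside its cut.
*Inv1* centromeric, chr19:45611036-45611065: cctcaatacacctccatgGGGcaaccaatg
*Inv1* telomeric, chr19:45734087-45734116: tgacaccagtattcctcgAGGgtgctgggg
*Inv2* centromeric, chr19:45332274-45332303: gacatttagctgtgatcgGGGgctgcacac
*Inv2* telomeric, chr19:45792711-45792740: tctgttctgCCTcttatcttggagaaattt

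The centromeric cut of *Inv1* lies between genes, 3219 bp beyond the end of *Btrc* and 15715 bp before *Poll*. Its telomeric cut lies in intron 1 of the full-length *Fbxw4* transcript, 701 bp inside the gene as counted from its start. *Inv1* therefore leaves the first exon of *Fbxw4* (45734266 to 45734802) in place and turns 81.36 kb of the gene round, while *Inv2* carries *Fbxw4* whole. The centromeric cut of *Inv2* lies between genes, 21987 bp from *Lbx1* and 105936 bp before *Btrc*, and its telomeric cut 57923 bp from *Fbxw4* and 18563 bp from *Fgf8*.

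Joined in the order of each allele, the same reference bases give the junctions below, in which capitals mark bases that the inversion turned. They are predictions from the reference and show no small insertions or deletions that repair may have left.
*Inv1* centromeric junction: cctcaatacacctccGGAATACTGGTGTCA
*Inv1* telomeric junction: CATTGGTTGCCCCATtcgagggtgctgggg
*Inv2* centromeric junction: gacatttagctgtgaAAGAGGCAGAACAGA
*Inv2* telomeric junction: GTGTGCAGCCCCCGAatcttggagaaattt

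The 4 cuts divide the locus into 5 segments, named A to E from the centromere. Segment A (42.29 kb, taken from the start of the *Lbx1* TAD) holds *Lbx1*, B (278.76 kb) holds *Btrc*, C (123.05 kb) holds *Poll*, *Dpcd*, the body of *Fbxw4* and the AER enhancers, D (58.62 kb) holds the start of *Fbxw4*, and E (27.27 kb, to the end of the *Fgf8* TAD) holds *Fgf8*. The AER enhancer interval was taken from 45655001 to 45705000, 10 bins of segment C with 105 DpnII sites. In *Inv1* the order is A, B, turned C, D, E. In *Inv2* it is A, turned D, turned C, turned B, E. Segment C, with the enhancers and the middle boundary, is thus turned the same way in both alleles. The alleles differ in what lies beside it, since B is on the *Lbx1* side and D on the *Fgf8* side in *Inv1*, and the reverse holds in *Inv2*.

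**Figure D1:**
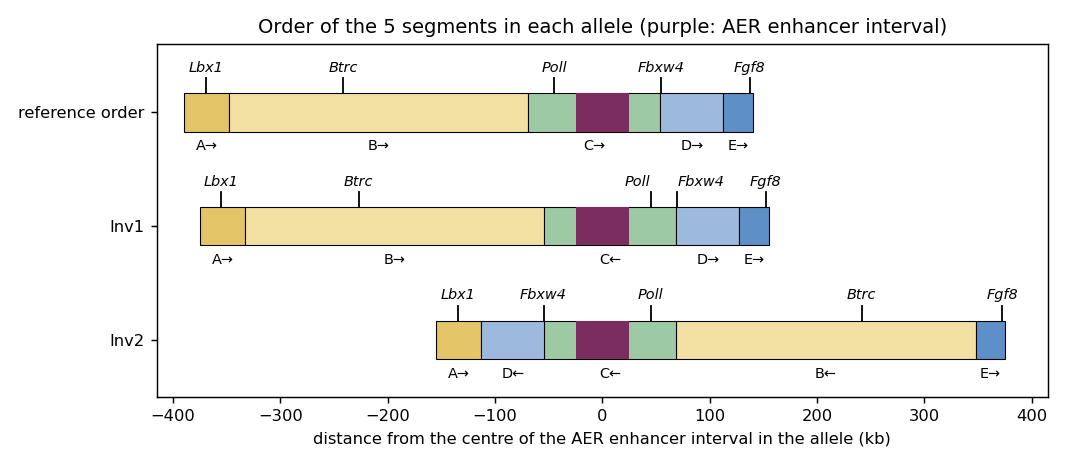
Order of the 5 segments in the reference, in *Inv1* and in *Inv2*, drawn to scale. The horizontal axis is the distance in kb from the centre of the AER enhancer interval (purple), arrows give the orientation of each segment and ticks mark the promoters. *Lbx1* lies 354.9 kb from the enhancers in *Inv1* and 134.7 kb in *Inv2*, and *Fgf8* 152.3 kb and 372.4 kb.

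The values were contact signal after Knight-Ruiz (KR) balancing, a procedure that multiplies each bin by a factor so that all bins have the same total. With the factors divided out, 100% of the values were whole numbers of read pairs within 0.01. *Inv1* held 11615891 read pairs and *Inv2* 12790852, and the median bin pair held 41 in each. Both maps were scaled jointly at each distance over bin pairs that lie outside the *Inv2* interval and then to the same total. This puts the maps on a common scale outside that interval. Contacts of turned segments were scaled by their distance in the reference, which can differ from that in each allele. Ratios are given with a 95% counting interval, which covers the error of counting read pairs only. Parts that neither allele rearranged had ratios near 1, as the scaling sets them. For *Inv1* over *Inv2* the ratio was 0.99 within the centromeric flank, 1.01 within the telomeric flank and 1.00 between them.

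Both junctions of each allele were seen as contact between sequences that lie far apart in the other allele. In windows of 25 kb on either side of a cut, the end of B met the telomeric end of C at a mean scaled contact of 101 in *Inv1* and 21.8 in *Inv2*, a ratio of 4.61 (95% counting interval 4.47 to 4.76). The centromeric end of C met the start of D at 72.2 in *Inv1* and 32.0 in *Inv2*. At the junctions of *Inv2* the order was the opposite. The end of A met the telomeric end of D at 17.01 in *Inv1* and 91.9 in *Inv2*, which was 5.403 (5.17 to 5.65) times as much, and the centromeric end of B met the start of E at 15.6 and 98.4, or 6.30 (6.11 to 6.49) times as much. The ends that only *Inv1* keeps together, A with B and D with E, were 6.16 and 7.203 times as high in *Inv1*. Those that only *Inv2* keeps together, B with C and C with D, were 2.52 and 4.74 times as high in *Inv2*. Each map thus had the joined ends that its label names.

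The AER enhancers met *Lbx1* more in *Inv2* and *Btrc* more in *Inv1*, while *Fgf8* differed less. For the *Lbx1* promoter (start at 45310301, the bin of the start and 1 bin on either side), mean scaled contact with the enhancer interval was 16.9 in *Inv1* from 5495 read pairs and 33.2 in *Inv2* from 10261. Contact was 1.957 (1.89 to 2.02) times as high in *Inv2*. For the *Btrc* promoter (45438224) it was 19.04 in *Inv1* from 4561 read pairs and 12.8 in *Inv2* from 2900. This was 1.49 (1.42 to 1.56) times as high in *Inv1*. For the *Fgf8* promoter (45817405) the values were 18.2 in *Inv1* from 6958 read pairs and 14.9 in *Inv2* from 5499, a ratio of 1.22 (1.18 to 1.26). The last of these intervals excludes 1 but lies inside the 1.3-fold that was taken as a difference. The *Fgf8* ratio was 1.33 without scaling per distance.

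Within each allele the order of these promoters differed. In *Inv1* the enhancers met *Btrc*, *Fgf8* and *Lbx1* at 19.04, 18.2 and 16.9 units, so that the highest was 1.12 times the lowest. In *Inv2* they met *Lbx1* at 33.2, *Fgf8* at 14.9 and *Btrc* at 12.8, so that *Lbx1* was 2.23 times as high as *Fgf8* and 2.59 times as high as *Btrc*. All of these windows have the same size, but the promoters lie at unlike distances from the enhancers, so the levels also reflect distance. Relative to the contact expected from distance, as described below, *Btrc*, *Fgf8* and *Lbx1* had 1.17, 0.75 and 1.44 in *Inv1*. In *Inv2* these values were 0.83, 1.33 and 1.23.

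The differences held along the whole enhancer interval for *Lbx1* and *Btrc*. In all 10 bins of the interval contact with *Lbx1* was higher in *Inv2*, by 1.72- to 2.30-fold, and in all 10 contact with *Btrc* was higher in *Inv1*, by 1.35- to 1.75-fold. For *Fgf8* all 10 bins were higher in *Inv1*, by 1.11- to 1.34-fold, and 1 of them passed 1.3-fold. The bins share the promoter windows and are not replicates of each other.

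*Poll* and *Dpcd* start in the same bin (45635021 for *Poll*) and lie in segment C, 45.0 kb from the centre of the enhancer interval in both alleles. Their contact with the enhancers was 61.3 in *Inv1* and 66.1 in *Inv2*, a ratio of 0.93 (0.91 to 0.94). The counting interval excludes 1, but the ratio lies close to the 0.96 found for contact within segment C as a whole. Both alleles put these genes with the enhancers equally far away and at a higher level than *Lbx1*, *Btrc* or *Fgf8*, which lie farther off. Relative to the contact expected at that distance, *Poll* and *Dpcd* had 0.79 in *Inv1* and 0.85 in *Inv2*.

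The start of *Fbxw4* had less contact with the enhancers in its introns in *Inv1* than in *Inv2*. The bin with its start also holds the telomeric cut of *Inv1*, so the promoter window mixes both sides of the cut, and it had 54.7 in *Inv1* and 75.1 in *Inv2*. The 15 kb just upstream of the start, which lie wholly in segment D, had 25.9 in *Inv1* from 7890 read pairs and 61.6 in *Inv2* from 18405. Contact there was 2.37 (2.31 to 2.44) times as high in *Inv2*. The distance to the enhancers was 77.3 kb in *Inv1* and 62.5 kb in *Inv2*, from which a ratio of 0.82 for *Inv1* over *Inv2* was expected, beside 0.42 observed.

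The difference began as a step at the cut. Bin by bin along the reference, contact of the enhancer interval in *Inv1* was 75.4 in the last whole bin of C and 27.2 in the first whole bin of D, where *Inv2* had 81.3 and 65.5. At the other end of C the step in *Inv1* went from 64.5 in the last bin of B to 33.1 in the first bin of C, and *Inv2* had 29.1 and 34.0 there. *Inv2* had its own steps at its cuts. Contact was 47.6 in the last bin of A and 15.97 in the first of B, and 36.3 in the last bin of D and 14.8 in the first of E, where *Inv1* went from 19.8 to 18.8 and from 16.8 to 19.6.

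**Figure D2:**
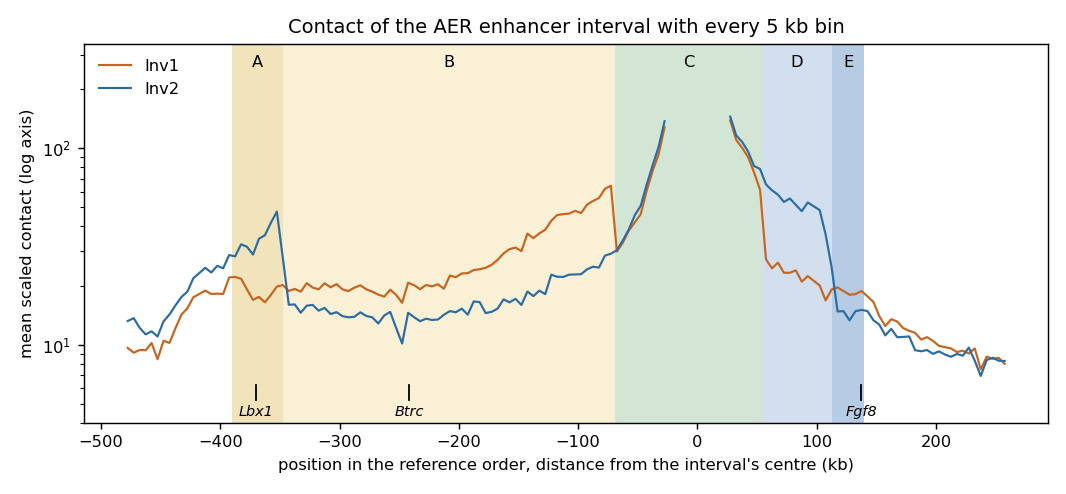
Mean scaled contact of the AER enhancer interval with each 5 kb bin (log axis) in *Inv1* and *Inv2*, against the position in the reference order in kb from the centre of the interval. Shading marks segments A to E. The *Inv1* line is above the *Inv2* line over B and E and below it over A and D, and the lines run close together over C.

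The read pairs that linked the enhancer interval to the rest of the capture numbered 403504 in *Inv1* and 389682 in *Inv2*, counted without the interval itself and 5 kb on either side. Segment B held 35.9% of them (Wilson interval 35.8 to 36.05) in *Inv1* and 21.5% (21.4 to 21.6) in *Inv2*. Segment D held 4.54% in *Inv1* and 10.8% in *Inv2*, and segment A 4.08% and 7.39%. Segment E, with *Fgf8*, held 2.69% (2.64 to 2.74) in *Inv1* and 2.13% (2.09 to 2.18) in *Inv2*. The share of the rest of C was 17.1% and 19.1%. The segments differ in length, with 55 bins in B and 5 in E, so the shares compare the alleles and not the segments. Per bin pair, scaled contact in *Inv1* was 18.6 for E and 18.9 for A, above the 3.87 of the centromeric and the 6.48 of the telomeric flank. These parts lie at unlike distances, on average 142 kb for E, 355 kb for A, and 812 and 452 kb for the flanks. Relative to the contact expected from distance, as described below, E had 0.73 and A 1.62. The centromeric flank had 0.73 and the telomeric flank 0.61.

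Along the B segment the difference between the alleles was larger nearer to C. B was divided into 4 parts of 13 or 14 bins. In the part farthest from C, next to *Lbx1* in the reference, the enhancers had 19.5 in *Inv1* and 14.8 in *Inv2*, a ratio of 1.31 (1.29 to 1.34). The second part, with the *Btrc* promoter, had a ratio of 1.43, the third 1.72 and the part next to C 2.11 (2.08 to 2.14), where the levels were 49.2 and 23.4. *Gm6807*, an annotated gene inside the body of *Btrc* (start at 45525685), lies in the third part and had 30.6 in *Inv1* and 16.5 in *Inv2*, or 1.86 (1.79 to 1.92). Every position of B was 14.85 kb nearer to the centre of the enhancers in *Inv1* than in *Inv2*, for instance 87.7 kb and 102.5 kb away on average for the part next to C.

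Contact was also set beside that expected from distance. The latter was read from the decay of both maps outside the inversions, at the distances in each allele's own order. For *Btrc*, 226.9 kb from the enhancers in *Inv1* and 241.8 kb in *Inv2*, the expected ratio was 1.06 and the observed one 1.49. Observed contact was 1.17 times the expected in *Inv1* and 0.83 times in *Inv2*. The observed over expected value was thus 1.40 times as high in *Inv1*, beside 1.11 to 1.38 times for the 13 start bins of the centromeric flank, the highest of them *Tlx1*. In *Inv2* the middle boundary lies between *Btrc* and the enhancers, as in the reference, and in *Inv1* it does not. The part of the boundary in these values was not tested.

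*Fgf8* has the middle boundary between itself and the enhancers in both alleles. This promoter lies 152.3 kb from the enhancers in *Inv1*. In *Inv2* it lies 372.4 kb away, with all of B between them as well. The expected ratio was 2.16 and the observed one 1.22. The promoter had 0.75 times its expected contact in *Inv1* and 1.33 times in *Inv2*. This was shared with the telomeric flank. Observed over expected contact in *Inv1*, divided by that in *Inv2*, was 0.56 for *Fgf8* and from 0.57 to 0.67 for all 11 start bins of that flank, and over the whole flank contact was 0.61 times the expected in *Inv1* and 0.93 times in *Inv2*.

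For *Lbx1* the ratio between the alleles was nearer to that expected from distance than for *Btrc* or *Fgf8*. It lies 354.9 kb from the enhancers in *Inv1* and 134.7 kb in *Inv2*, with no part of the middle boundary between them in either allele. The expected ratio of *Inv2* over *Inv1* was 2.30 and the observed one 1.957. Relative to its distance *Lbx1* had 1.44 times the expected contact in *Inv1* and 1.23 times in *Inv2*, above 1 in both.

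A pair of promoters at similar distances can be read directly. *Lbx1* in *Inv2* and *Fgf8* in *Inv1* lay 134.7 and 152.3 kb from the enhancers, on the opposite sides of segment C, and had 33.2 and 18.2 units of contact beside 27.0 and 24.3 expected. *Lbx1* in *Inv1* and *Fgf8* in *Inv2*, at 354.9 and 372.4 kb, had 16.9 and 14.9 beside 11.7 and 11.2 expected.

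**Figure D3:**
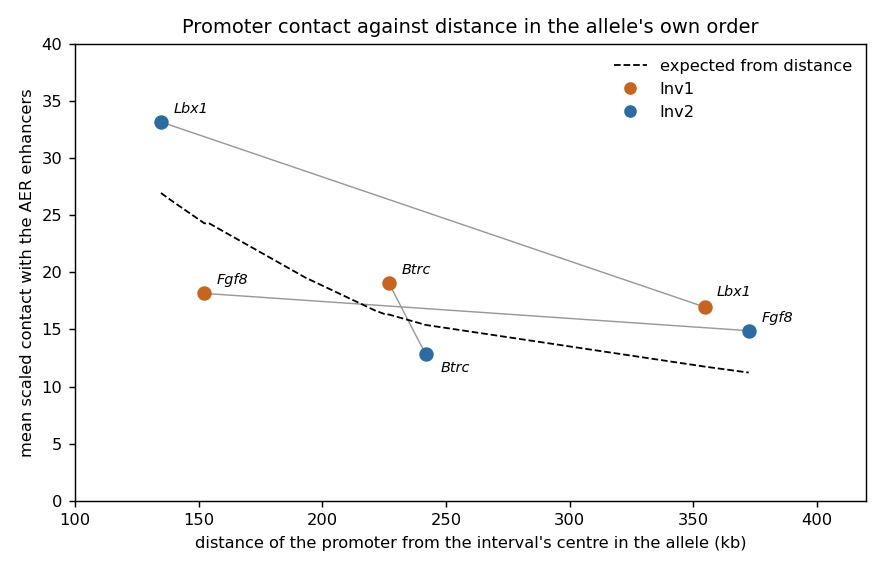
Mean scaled contact of the *Lbx1*, *Btrc* and *Fgf8* promoters with the AER enhancer interval against their distance from its centre in the allele's own order (kb), with grey lines joining the values of a gene in *Inv1* and *Inv2*. The dashed line is the contact expected from distance. *Fgf8* in *Inv1* and *Btrc* in *Inv2* lie below it and the other 4 points above it.

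Contact with the enhancers was read in the same way for every annotated protein-coding promoter of the capture. The 35 genes have 30 start bins. It was past 1.3-fold higher in *Inv1* for 2 of the 30 (6.67%), *Btrc* and *Gm6807*, and past 1.3-fold higher in *Inv2* for 4 (13.3%), *Lbx1*, *Fbxw4*, *Pax2* and *Wnt8b*. Without scaling per distance, or on read pairs without the KR factors, *Fbxw4*, *Pax2* and *Wnt8b* were within 1.3-fold, and *Lbx1*, *Btrc* and *Gm6807* stayed past it. Other promoters joined the list in some settings. Without scaling per distance *Fgf8* and *Npm3* passed 1.3-fold. With only bin pairs inside the inversions left out, telomeric flank start bins reached 1.45. Rectangles of the same sizes and distances as those of *Lbx1*, *Btrc* and *Fgf8*, moved along the flanks, gave ratios from 0.84 to 1.17. Of 529 overlapping placements, 0 (0%) passed 1.3-fold. Both sides of these rectangles lie outside the *Inv2* interval, where the scaling sets sums equal at each distance. Their ratios were thus drawn towards 1 in advance, and they give no background share for contact of the enhancer interval.

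The flanks differed from each other in direction. All 13 start bins of the centromeric flank had less contact with the enhancers in *Inv1*, with ratios from 0.74 to 0.91 and a median of 0.80. Contact of the kidney and eye regulator *Pax2* was 2.34 in *Inv1* and 3.17 in *Inv2*, and that of the signalling gene *Wnt8b* 2.01 and 2.70, so these were low levels. The homeobox gene *Tlx1* had 9.33 and 11.3, a ratio of 0.82 (0.78 to 0.87). *Slf2* (*Fam178a* in the annotation) and *Twnk* (*Peo1*) had ratios of 0.82 and 0.79. All 11 start bins of the telomeric flank had ratios of 1 or more, from 1.00 to 1.23, with the highest for *Npm3*, the gene next to *Fgf8*. *Oga* (*Mgea5*) had 11.8 and 10.4, a ratio of 1.13 (1.08 to 1.186). The counting interval included 1 for most telomeric start bins, and for the lowest ratio, 1.00, it ran from 0.91 to 1.10. It also included 1 for the centromeric start bin with a ratio of 0.91 (0.81 to 1.02). The direction turned for 1 of the 13 centromeric start bins without scaling per distance and for 1 of the 13 when only bin pairs inside the inversions were left out. It turned for at most 3 of the 11 telomeric ones in the other settings. In *Inv2* segment C lies 220.1 kb nearer to the centromeric flank than in *Inv1* and as much farther from the telomeric one.

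**Figure D4:**
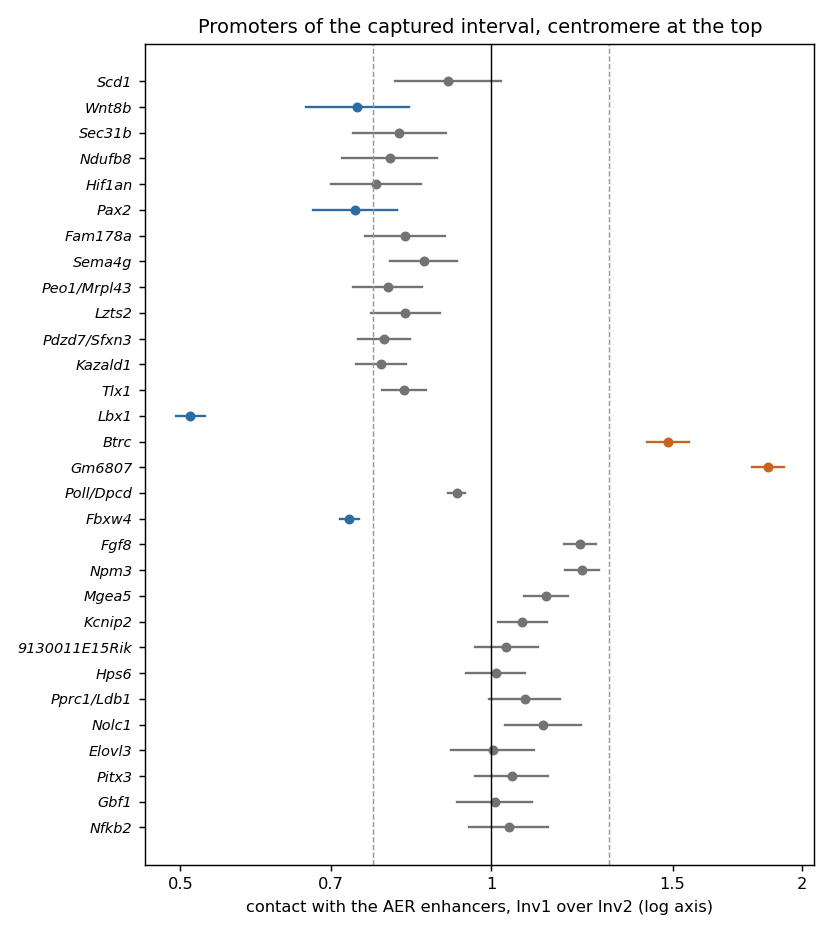
Ratio of contact with the AER enhancers, *Inv1* over *Inv2* (log axis), for the 30 start bins of annotated promoters in their order from the centromere. Bars are 95% counting intervals, dashed lines mark 1.3-fold, and colours mark promoters past it (orange higher in *Inv1*, blue higher in *Inv2*). *Lbx1* at 0.51 and *Gm6807* at 1.86 are the extremes.

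Contact between whole segments showed which neighbours each inversion exchanged. Contact of a segment with itself differed little, with ratios from 0.95 to 1.05 over the 5 segments, or 0.88 to 1.185 with the bins that hold a cut kept. Between segments the ratios ranged from 0.34 to 5.92. Segment D, with the start of *Fbxw4* and the DNA between it and *Fgf8*, met E at 87.9 in *Inv1* and 14.8 in *Inv2*, a ratio of 5.92 (5.77 to 6.07). It met A, with *Lbx1*, at 21.4 in *Inv1* and 63.5 in *Inv2*, which was 2.97 (2.92 to 3.03) times as high in *Inv2*. The B segment met A at 32.1 in *Inv1* and 16.7 in *Inv2*, a ratio of 1.93 (1.91 to 1.95). It met E at 14.3 in *Inv1* and 38.9 in *Inv2*, which was 2.73 (2.70 to 2.76) times as high in *Inv2*. Distance gave 7.58 for D with E and 2.47 for A with B. For *Inv2* over *Inv1* it gave 6.66 for A with D and 2.64 for B with E. Relative to expected contact, D with E, A with D and A with B were higher in the allele with the lower level. A with D had 2.17 in *Inv1* and 0.97 in *Inv2*, and B with E had 1.12 and 1.16.

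Contact of segment C with its neighbours had the same direction as that of the enhancers within it. C met B at 28.2 in *Inv1* and 20.3 in *Inv2*, a ratio of 1.39 (1.38 to 1.39), where distance gave 1.00. It met D at 30.9 and 52.7, which was 1.71 (1.69 to 1.72) times as high in *Inv2*, and distance again gave a ratio of 1.00. With the bins that hold a cut kept, C with B was at 1.29, inside 1.3-fold. Relative to expected contact, C with B went from 1.194 in *Inv1* to 0.86 in *Inv2*, and C with D from 0.68 to 1.15. In *Inv1* the end of C that carries the middle boundary faces D, and in *Inv2* it faces B.

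**Figure D5:**
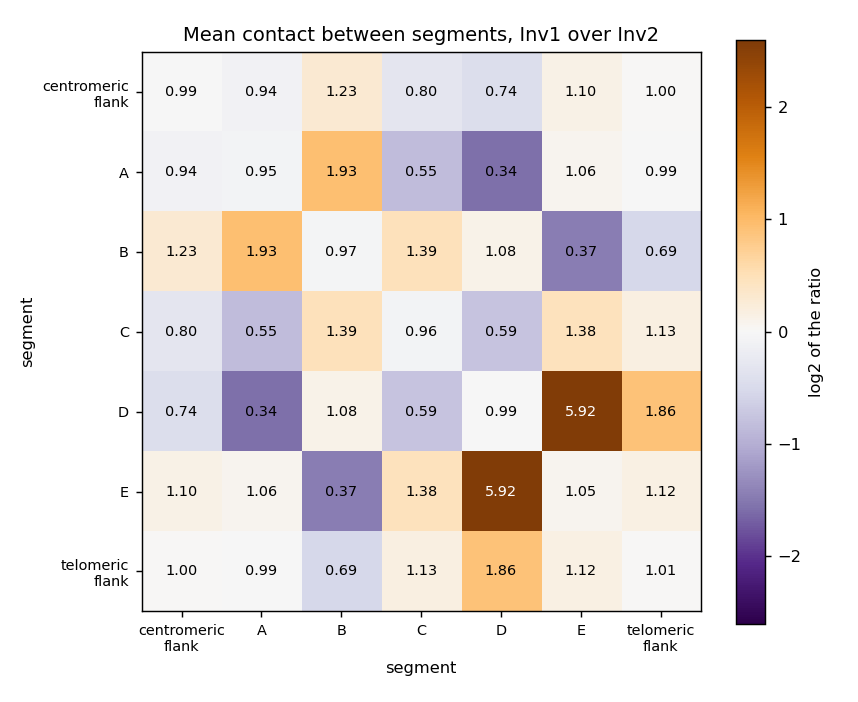
Ratio of mean scaled contact between segments, *Inv1* over *Inv2*, for segments A to E and both flanks, printed in each square and coloured by its log2. Squares on the diagonal lie between 0.95 and 1.05, D with E is at 5.92 and A with D at 0.34.

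Some contacts kept the same distance in both alleles. Apart from B with D, those below lie outside the *Inv2* interval, where the scaling sets sums equal at each distance. Ratios near 1 were therefore favoured in advance for them. *Lbx1* and *Fgf8*, 505 kb apart in both, met at 34.6 in *Inv1* and 34.6 in *Inv2*, a ratio of 1.00 (0.96 to 1.04). This was 3.68 times the contact expected at that distance in each map. The *Fgf8* window lies within the telomeric boundary and the *Lbx1* window borders the centromeric one. The value is thus not separate from the contact of the outer boundaries given below. Segment B with D, at the same distances in both alleles, had a ratio of 1.08 (1.07 to 1.10). Over all 6 pairs of segments and flanks of the locus whose distances were the same, the ratio ranged from 0.94 to 1.12. With the bins that hold a cut kept, the range was 0.86 to 1.17, and A with E turned from 1.06 to 0.86. Such bins mix both sides of a cut, so some of these pairs then no longer have the same distances. The ratio expected from distance was then 0.27 for A with E, 1.18 for B with D and 1.12 for E with the telomeric flank.

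Among the promoters themselves the inversions exchanged partners. *Lbx1* met *Btrc* at 25.9 in *Inv1* and at 11.3 in *Inv2*, a ratio of 2.29 (2.11 to 2.48). *Fgf8* met *Btrc* at 12.8 in *Inv1* and 28.8 in *Inv2*, which was 2.26 (2.11 to 2.42) times as high in *Inv2*. Set against distance, these pairs had 0.93 to 1.15 times the expected contact in the alleles. The upstream side of *Fbxw4* met *Fgf8* at 68.6 in *Inv1* and 15.9 in *Inv2* and *Lbx1* at 22.9 and 53.4. By level, the *Fbxw4* upstream side was thus with *Fgf8* in *Inv1* and with *Lbx1* in *Inv2*, the nearer gene in each allele. *Fgf8* lay 75 kb from it in *Inv1* and 435 kb in *Inv2*, and *Lbx1* 430 kb and 70 kb. Set against distance, its contact with *Fgf8* was 1.60 times the expected in *Inv1* and 1.59 times in *Inv2*. With *Lbx1* it was 2.26 and 1.18 times the expected.

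*Poll*, at the middle boundary, met *Lbx1* at 23.3 in *Inv1* and 41.4 in *Inv2* and *Fgf8* at 38.4 and 28.8. Its contact with *Btrc* was 19.1 and 19.8, a ratio of 0.97 (0.90 to 1.04), at 270.2 kb in *Inv1* and 200 kb in *Inv2*. Against its distance this pair had a value of 1.36 in *Inv1* and 1.07 in *Inv2*.

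The choice of enhancer region mattered most for *Fgf8*. The study took its integrated signal over a wider region, here 45650001 to 45775000 in whole bins, which runs into segment D as well as C. Over that region contact with *Fgf8* was 2.21 times as high in *Inv1*, and contact with *Lbx1* had a ratio of 0.43. The *Fgf8* promoter met D alone at 67.3 in *Inv1* and 15.3 in *Inv2*, a ratio of 4.396 (4.26 to 4.54), and *Lbx1* met D at 20.04 and 60.2. The larger difference of *Fgf8* in level between the alleles was thus in its contact with D, which lies beside E in *Inv1* only. Relative to the contact expected from distance, *Fgf8* with D had 1.15 in *Inv1* and 1.56 in *Inv2*. *Lbx1* with D had 2.03 and 0.93.

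The outer boundaries of the locus met each other equally in both maps, and the middle boundary met the nearer of them more in each comparison of the alleles. The centromeric (45280001 to 45305000) and the telomeric boundary (45810001 to 45835000) had 34.3 in *Inv1* and 34.4 in *Inv2*, a ratio of 1.00 (0.97 to 1.03). This was 3.81 times the expected contact in both. Both boundaries lie outside the *Inv2* interval, so the scaling favoured a ratio near 1. The middle boundary (45615001 to 45650000) met the centromeric one at 29.0 in *Inv1*, 420 kb away, and 42.7 in *Inv2*, 200 kb away. It met the telomeric one at 44.3 in *Inv1*, 110 kb away, and 31.1 in *Inv2*, 330 kb away. Relative to distance the order was the opposite. Observed over expected contact was 2.82 in *Inv1* and 2.30 in *Inv2* with the centromeric boundary, and 1.42 and 2.50 with the telomeric one.

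Each allele's map was also read in its own order for insulation. The score compares the contact that crosses a position, between windows of 100 kb to its left and right, with the map's average on the log2 scale, and it is low at a boundary. At the middle boundary the lowest score was -0.50 in *Inv1* and -0.52 in *Inv2*, and 9.57% and 7.83% of the 345 scored bins were as low or lower. In both alleles this minimum lay 62.5 kb from the centre of the enhancers, on the *Fgf8* side. The centromeric boundary scored -0.61 in *Inv1* and -0.52 in *Inv2*, and the telomeric one -0.59 and -0.90. With no replicate maps, the spread of these scores between embryos is unknown.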

How the data were processed

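The deposited values used here are contact signal. The authors mapped reads to mm9 with HiCUP and Bowtie2 2.4.2, removed duplicates, merged the replicates, binned read pairs of sufficient mapping quality at 5 kb and applied KR balancing with Juicer tools 1.19.02. Reads were not remapped, so the reference order and the merging are fixed in all values, and balancing makes contacts relative to each bin's total. The 6 other deposited maps, among them differences between mutant and wild-type made by the authors, were not used here. The wild-type map served only for its decay with distance.

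Values were computed with Python 3.11.15 and numpy 2.4.6 and plotted with matplotlib 3.10.9. The joint scaling follows the study's subtraction maps and was set to a total of 1000000 outside the *Inv2* interval. Scaling factors lay between 0.94 and 1.07 at 2 to 100 bins apart. A ratio is that of the means over a rectangle of bin pairs. Its interval spans 1.96 standard errors of the log ratio to each side, with the inverse of each map's read pairs as variance. Bins that hold a cut were left out of segments. The recovery of read pairs and the scaling were run on simulated maps with a set contact ratio in a rectangle of bin pairs. Those maps shared the same decay and held no inversion. They therefore do not test values of turned segments, observed over expected contact or insulation. Genes come from GENCODE on mm9. TADs, boundaries and the enhancer interval were read by eye from a drawing. Named genes are *Lbx1*, *Btrc*, *Poll*, *Dpcd*, *Fbxw4*, *Fgf8*, *Slf2*, *Twnk*, *Oga*, *Tlx1* and *Pax2* and other promoters past 1.3-fold. *Npm3* was added after its value was seen. Members, genes and regions were chosen with earlier results of these data known.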

Additional observations from a re-analysis of the deposited data

How the results depend on the processing

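No paired analysis was possible because the replicates of each genotype are merged in 1 map, and for the same reason no replicate could be left out. The direction of the *Lbx1*, *Btrc* and *Fgf8* ratios (*Inv1* over *Inv2*) was the same in all 7 alternatives run for each. The *Lbx1* ratio of 0.51 moved beyond its counting interval to 0.57 without scaling per distance, 0.57 when only bin pairs with both ends inside the inversions were left out, 0.53 on read pairs without the KR factors, 0.43 over the study's wider region and 0.53 over the shorter enhancer interval. The *Btrc* ratio of 1.49 moved to 1.65 without scaling per distance. The *Fgf8* ratio of 1.22 was 1.33 without scaling per distance, past 1.3-fold, 1.16 with only the inner bin pairs left out, 1.28 without the KR factors and 2.21 over the wider region, which holds part of segment D. Without scaling per distance the ratio between the flanks was 1.12, so long-range ratios shift upwards together. The number of promoters past 1.3-fold, 6, was 3 without the KR factors, 13 over the wider region, 17 at 1.2-fold and 2 at 1.5-fold. With the bins that hold a cut kept in the segments, D with E went from 5.92 to 4.04, C with D from 0.59 to 0.73, C with B from 1.39 to 1.29 and A with E from 1.06 to 0.86, and such bins mix both sides of a cut. Observed over expected contact ranged from 0.75 to 0.78 for *Fgf8* in *Inv1* and from 1.33 to 1.505 in *Inv2* over the 3 decays.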
